A study of Mus musculus with 17 samples.

Results

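The members described here are the genes of the EGF receptor family and its ligands: the ligands Areg, Ereg, Hbegf, Egf, Tgfa and Btc and the receptors Egfr, Erbb2 and Erbb3. They were chosen by gene symbol in a table of log2 expression values, with 1 probe set per gene, namely the probe set naming exactly 1 gene that had the highest mean over 17 arrays. Of 9 named members 8 were measured, among 17097 genes in all. Areg, which encodes amphiregulin, had no probe set under its symbol or gene identifier in the annotation used, and it was not analysed here. The 8 measured members comprised 5 ligands and 3 receptors, and they had 18 probe sets between them. A further 6 genes of the family (Epgn, Nrg1, Nrg2, Nrg3, Nrg4 and Erbb4) were each measured and are described beside the members.

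The study profiled cells from the lacrimal gland, the tear-producing gland, of male NOD mice, an inbred strain whose glands fill with lymphocytes, studied as a mouse model for Sjögren's syndrome. No allele or treatment beyond the strain is given for any group. There were 4 arrays of gland B cells (B_LG), 4 of gland CD4 T cells (CD4T_LG), 3 of gland epithelial cells (Epi_LG), 3 of spleen B cells (B_Spleen) and 3 of spleen CD4 T cells (CD4T_Spleen). Gland mice were 16 weeks old. Spleen mice are given as 16 weeks old in the sample labels and as 4 weeks old in the series text, so tissue and age cannot be told apart if the second is right. Cells were sorted by flow cytometry: B cells as CD45+ B220+ CD3-, CD4 T cells as CD45+ CD3+ CD4+ B220-, both without NKp46, CD11b and CD11c, and epithelial cells as CD45- CD326+. The labels do not say whether replicates came from separate animals. Every p-value here therefore reflects the scatter among these arrays alone, and that scatter may be technical. Levels are log2 intensities of a probe set, and the median of all values in the table was 4.71. Levels of different probe sets are not compared, because probe sets bind with different strength.

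EGF family ligands are made as membrane-anchored proteins that proteases cut free from the cell surface, and most act on neighbouring cells. They bind EGFR, ERBB3 or ERBB4. ERBB2 has no known ligand of its own and pairs with the others, and ERBB3 has little kinase activity and signals through its partner. In secretory glands the receptors are best known from epithelium, where they guide growth, branching and repair. EGF itself is a known product of several exocrine glands. In lymphocytes, ligands such as heparin-binding EGF-like growth factor (HB-EGF) and amphiregulin have been studied as products of T cells.

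The promoters of Egf, Erbb2 and Egfr are shown because the first 2 of these genes were higher in the epithelial sort and Egfr gave different answers from different probe sets. RefSeq lists 2 promoter windows for Egf, and the one further upstream is printed; the other, at chr3:129725037-129725336, held no match to the motifs searched either. Each is a window of 300 bases on GRCm38.p6, printed 5′ to 3′ on the strand of the gene. Egf lies on the minus strand at chr3:129755273-129755572, Egfr on the plus strand at chr11:16751953-16752252 and Erbb2 on the plus strand at chr11:98412234-98412533. Capitals mark matches, on either strand, to the letters of a GC box (GGGCGG) or a CCAAT box (CCAAT).
Egf: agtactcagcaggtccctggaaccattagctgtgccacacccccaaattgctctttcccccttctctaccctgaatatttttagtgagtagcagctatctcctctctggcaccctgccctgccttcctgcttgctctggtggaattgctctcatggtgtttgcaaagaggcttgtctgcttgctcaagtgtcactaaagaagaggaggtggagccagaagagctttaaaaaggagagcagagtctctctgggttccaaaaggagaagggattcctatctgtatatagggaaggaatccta
Egfr: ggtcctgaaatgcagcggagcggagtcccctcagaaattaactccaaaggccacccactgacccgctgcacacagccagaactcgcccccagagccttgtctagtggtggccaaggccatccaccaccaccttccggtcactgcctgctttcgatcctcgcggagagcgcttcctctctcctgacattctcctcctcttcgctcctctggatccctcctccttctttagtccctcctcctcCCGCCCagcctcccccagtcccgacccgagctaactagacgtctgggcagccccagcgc
Erbb2: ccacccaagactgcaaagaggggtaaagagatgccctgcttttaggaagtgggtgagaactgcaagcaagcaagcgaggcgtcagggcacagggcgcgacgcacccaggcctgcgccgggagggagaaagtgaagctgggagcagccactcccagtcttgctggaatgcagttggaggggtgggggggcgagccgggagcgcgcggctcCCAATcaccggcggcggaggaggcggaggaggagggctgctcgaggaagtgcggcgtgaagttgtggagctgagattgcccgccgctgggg
The Egfr window held 1 GC box, the Erbb2 window held 1 CCAAT box, and the Egf window held no match to these or to the other motifs searched on both strands, which were the TATA box (letters TATAAA) and the binding motif of AP-1 factors (letters TGANTCA). The motifs do not overlap each other in these windows. Among 32851 promoter windows of the same length, 35.7% held a GC box, 37.4% a CCAAT box, 13.6% a TATA box and 7.81% an AP-1 match. Bases G and C made up 49% of the Egf window, 62.3% of the Egfr window and 66% of the Erbb2 window, beside a median of 52.7% over all windows. A match describes the letters and not a bound site.

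Of the measured members, 5 were higher in the gland epithelial sort than in lymphocytes: the ligands Egf, Hbegf and Btc and the receptors Erbb3 and Erbb2. A gene was called where the p of limma's moderated test, adjusted for all genes by Benjamini and Hochberg, was under 0.05, the fold change was at least 2 and the epithelial mean lay above (or below) that of each lymphocyte group. These 5 of 8 were called higher and 0 were called lower than the gland lymphocytes (the mean of the B and CD4 T cell groups), where 14.9% of all genes were called higher and 9.81% lower. The same 5 were called higher than the spleen lymphocytes, taken in the same way, where 15.6% of all genes were called higher and 10.7% lower. The members' median difference was 1.35 on the log2 scale against gland lymphocytes and 1.57 against spleen lymphocytes, while that of all genes was -0.10 and -0.12. Arrays were also centred on the median of their 28898 probe sets that name exactly 1 gene. This took the all-gene medians to -0.26 and -0.34. The split of all calls against spleen lymphocytes went from 2673 higher and 1836 lower to 2356 and 2585, and 5 members were still called higher. The comparisons share the epithelial arrays, so they are not independent of each other. Against spleen lymphocytes, cell type and tissue differ together. Digestion and age may differ too, and none of these can be told apart there.

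Egf, the founding ligand of the family, had levels of 9.15, 9.35 and 8.99 in the 3 epithelial arrays. Its levels were 5.60 to 5.82 in gland B cells, 5.08 to 5.61 in gland CD4 T cells, 5.16 to 5.79 in spleen B cells and 5.36 to 5.62 in spleen CD4 T cells. All epithelial arrays lay above all lymphocyte arrays, and the 4 lymphocyte groups overlapped. The Egf difference was 3.68 ± 0.13 (SE) on the log2 scale against gland lymphocytes, a 12.8-fold difference with an adjusted p of 9.13e-13 by limma. Against spleen lymphocytes it was 3.68 ± 0.14, with an adjusted p of 1.29e-12 by limma.

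Hbegf encodes HB-EGF, a ligand of EGFR and ERBB4 that binds heparan sulphate. Its epithelial levels were 6.93, 6.99 and 6.99, the tightest triplet of the members called. The lymphocyte arrays ran from 2.50, in a spleen CD4 T cell array, to 4.59, in gland CD4 T cell replicate 2. Epithelial arrays were higher by 3.67 ± 0.21 (SE, log2; 12.7-fold, limma adjusted p 3.40e-10) than gland lymphocytes. They were higher by 4.00 ± 0.22 (16.1-fold, limma adjusted p 1.76e-10) than spleen lymphocytes. A second Hbegf probe set gave the same direction, with epithelial levels of 4.95, 5.44 and 5.88 above lymphocyte levels of 2.35 to 3.33.

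Btc encodes betacellulin, a ligand of EGFR and ERBB4. It had epithelial levels of 4.25, 3.77 and 5.30, and lymphocyte levels of 2.19 to 3.38. The epithelial and lymphocyte arrays did not overlap, and the epithelial arrays were spread (SD 0.78, n = 3). The difference from gland lymphocytes was 1.49 ± 0.22 (SE, log2; 2.80-fold, limma adjusted p 2.45e-05), and it ranged from 1.06 to 1.82 when each array was left out in turn. The second Btc probe set was dimmer, at 2.60 to 2.90 in epithelial arrays and 2.04 to 2.37 in lymphocyte arrays, a difference of 0.61 ± 0.08 that stayed under 2-fold.

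The remaining measured ligands were not called higher in the epithelial sort on the probe sets the rule selects. Ereg, which encodes epiregulin, read 1.35 to 1.74 over all 17 arrays. Its groups overlapped throughout, below the median of all values, and its epithelial difference was 0.10 ± 0.08 (SE, log2) against gland lymphocytes. Tgfa, which encodes transforming growth factor alpha, lay between 4.37 and 4.96 in all arrays, with an epithelial difference of -0.18 ± 0.10 (limma adjusted p 0.123).

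Among the receptors, Erbb3 was higher in the epithelial sort on its brighter probe set, at 10.02, 10.01 and 10.30 in the 3 arrays. Lymphocyte arrays ran from 6.003 to 7.67. The difference was 3.16 ± 0.20 (SE, log2; 8.97-fold, limma adjusted p 6.63e-10) against gland lymphocytes and 3.48 ± 0.20 (11.2-fold) against spleen lymphocytes. The lymphocyte levels stood above the median of all values, and which transcript that signal comes from was not tested. The second Erbb3 probe set read 1.88 to 2.51 in every group, epithelial arrays included (difference -0.01 ± 0.11), and did not show the difference. Its levels lay within the range of 4 family genes that were low in every group (1.35 to 2.96). Without detection calls, whether it detects the transcript cannot be told.

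Erbb2, the receptor that pairs with the others without a ligand of its own, had epithelial levels of 6.01, 6.23 and 5.74. Lymphocyte arrays lay between 4.41 and 5.13, near the median of all values, and did not overlap with the epithelial arrays. The difference was 1.22 ± 0.12 (SE, log2; 2.33-fold, limma adjusted p 2.26e-07) against gland lymphocytes and 1.42 ± 0.13 (2.68-fold, limma adjusted p 5.62e-08) against spleen lymphocytes.

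**Figure D1:**
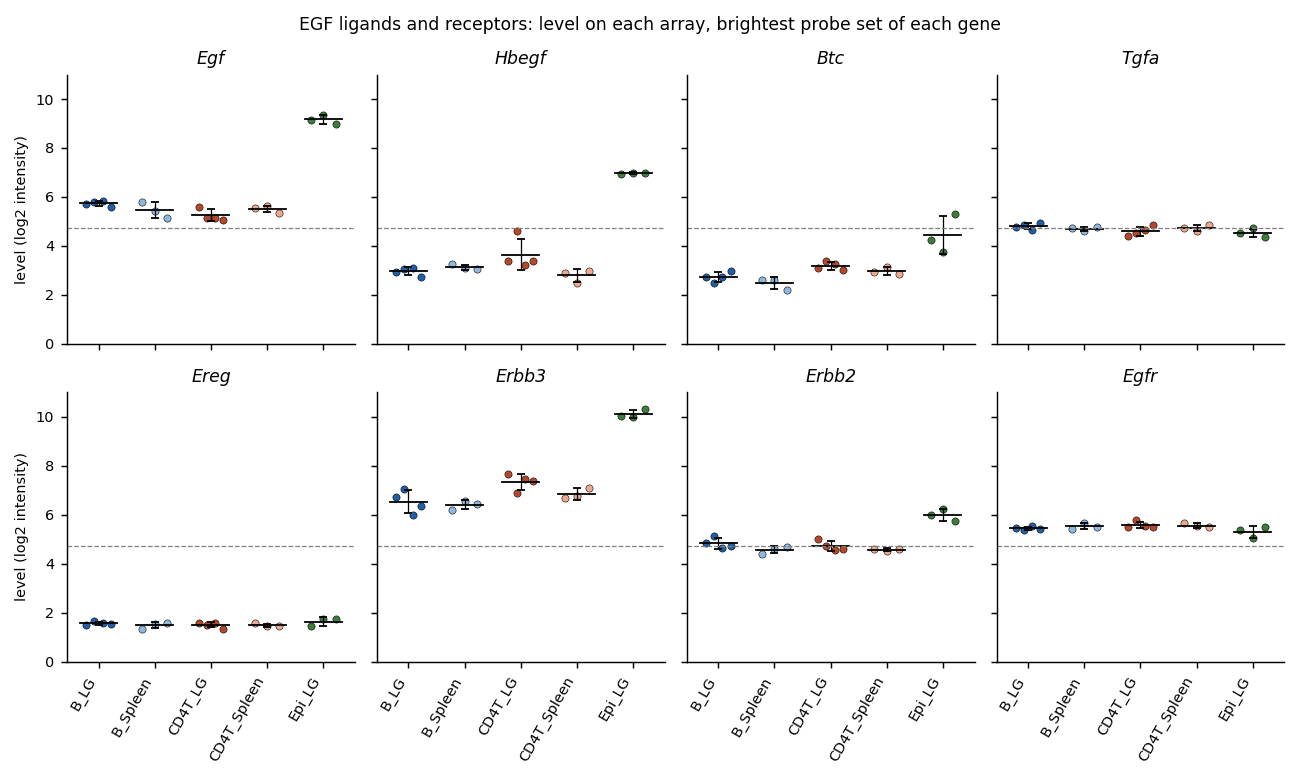
Level of 8 family members (log2 intensity, y axis) on each array by group, from the brightest probe set of each gene; points are arrays, horizontal lines means, error bars SD, and the dashed line the median of all values (4.71). Egf, Hbegf, Btc, Erbb3 and Erbb2 stand higher in the 3 epithelial arrays, while Tgfa, Ereg and the brightest Egfr probe set do not.

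The order of the group means was short for most members. For Egf, Hbegf, Btc, Erbb2 and Erbb3 the epithelial group came first, apart from the others, and every pair of lymphocyte groups neighbouring in that order overlapped. For Ereg, Tgfa and the brightest Egfr probe set all 5 groups overlapped with their neighbours. How many of all genes show such gaps or overlaps was not counted, so these orders only describe the members. Hbegf ran from epithelium (6.97 ± 0.03, SD, n = 3) through gland CD4 T cells (3.64 ± 0.64, n = 4), spleen B cells (3.14 ± 0.10, n = 3) and gland B cells (2.96 ± 0.16, n = 4) to spleen CD4 T cells (2.79 ± 0.26, n = 3). Erbb3 ran from epithelium (10.1 ± 0.17, n = 3) through gland CD4 T cells (7.35 ± 0.33, n = 4), spleen CD4 T cells (6.84 ± 0.23, n = 3) and gland B cells (6.54 ± 0.46, n = 4) to spleen B cells (6.41 ± 0.19, n = 3).

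Egfr, the receptor for most of these ligands, had 6 probe sets that gave different answers. The brightest, which the rule selects, was flat: epithelial levels were 5.36, 5.03 and 5.48 and lymphocyte levels 5.37 to 5.77. Its difference from gland lymphocytes was -0.22 ± 0.09 (SE, log2; limma adjusted p 0.0496) and from spleen lymphocytes -0.25 ± 0.10 (limma adjusted p 0.0335), both under 2-fold and not called. The probe set ranked 3 in brightness read 8.33, 8.50 and 9.08 in the epithelial arrays. The same Egfr probe set read 3.77 to 4.49 in gland B cells, 3.45 to 3.92 in gland CD4 T cells and 3.15 to 3.35 in spleen lymphocytes. Its epithelial difference was 4.68 ± 0.17 (25.7-fold) against gland and 5.40 ± 0.17 (42.2-fold) against spleen lymphocytes.

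A further Egfr probe set, ranked 5, read 6.71, 7.11 and 7.05 in epithelial arrays and 2.02 to 2.74 in lymphocyte arrays, a difference of 4.48 ± 0.12 (SE, log2; 22.3-fold). With all 28898 probe sets that name exactly 1 gene in the fit, limma's adjusted p was 5.77e-13 for rank 3 and 2.43e-14 for rank 5 against gland lymphocytes. Rank 2 was higher by 0.78 ± 0.11, under 2-fold. Rank 6 was higher by 1.26 ± 0.29, with epithelial arrays at 2.70, 3.86 and 5.02 that were not alike. Rank 4 was flat (-0.09 ± 0.08). The lymphocyte levels at ranks 5 and 6 lay within the range of 4 family genes that were low in every group (1.35 to 2.96). The table holds no detection calls, so such fold changes may understate the difference. So 3 of the 6 Egfr probe sets were called higher in the epithelial sort and 0 were called lower, and the rule's choice of the brightest falls on a probe set without that difference. The share of all 28898 probe sets called in this fit was not counted, so the count only describes Egfr. The parts of the transcript that the Egfr probe sets bind were not examined here.

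Tgfa showed the same disagreement on a smaller scale. Its dimmest probe set read 3.60, 3.84 and 3.59 in the epithelial arrays and 2.21 to 2.94 in lymphocyte arrays. That is a difference of 1.01 ± 0.12 (SE, log2; 2.02-fold, limma adjusted p 2.53e-06) against gland lymphocytes and 1.29 ± 0.13 (2.44-fold) against spleen lymphocytes, at levels below the median of all values. The second Tgfa probe set was slightly lower in epithelium, by -0.28 ± 0.12, under 2-fold.

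**Figure D2:**
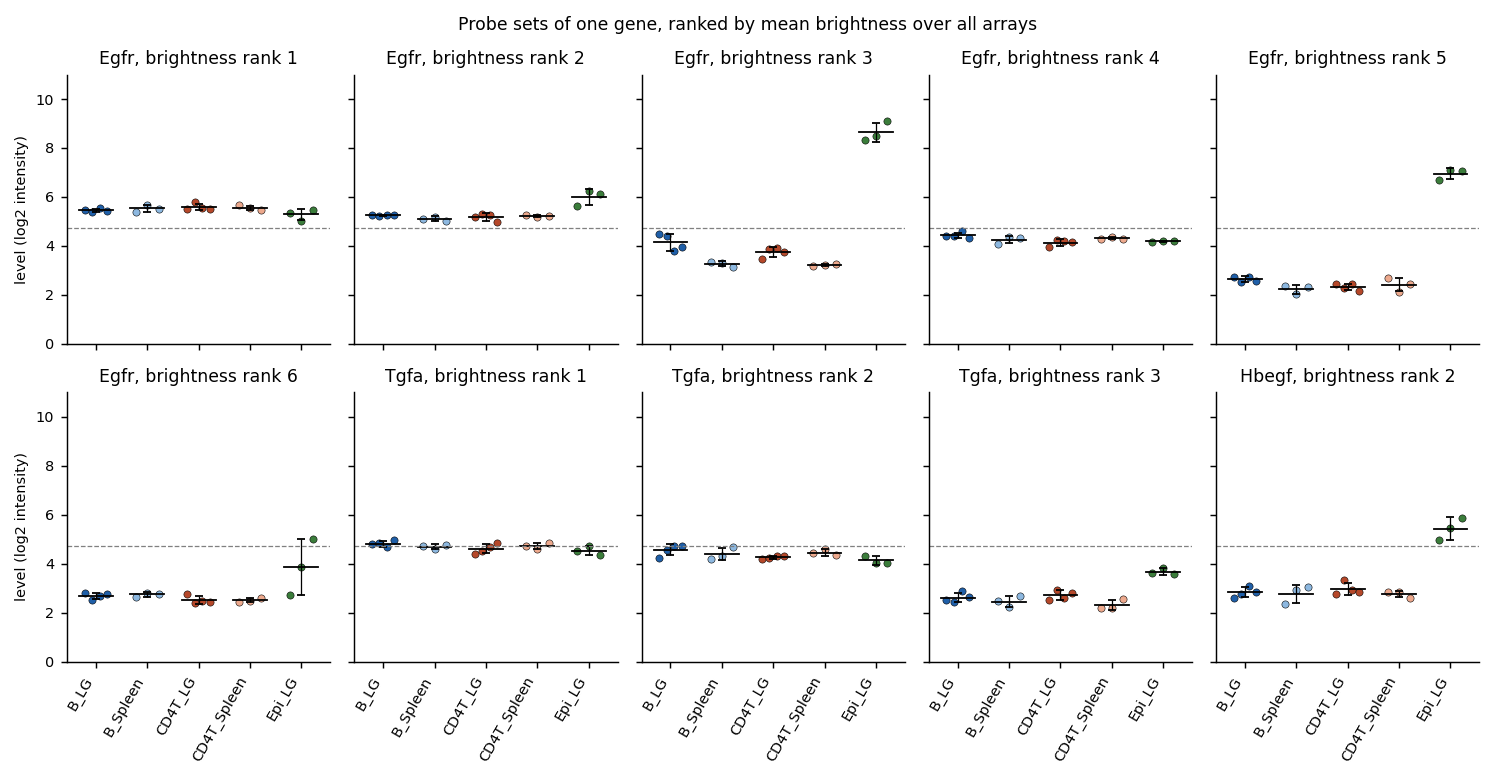
Levels (log2 intensity, y axis) of all 6 Egfr probe sets, all 3 Tgfa probe sets and the second Hbegf probe set on each array by group, ranked by mean brightness; points are arrays, horizontal lines means and error bars SD. Egfr ranks 3 and 5 stand far higher in the 3 epithelial arrays, at 8.33 to 9.08 and 6.71 to 7.11, while Egfr ranks 1 and 4 are level across groups.

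Of the 6 other family genes, 2 were called higher in the epithelial sort than in gland lymphocytes and 0 lower. The shares over all genes were 14.9% and 9.81%. Both genes called encode neuregulins. Nrg4, which encodes a ligand of ERBB4, had epithelial levels of 9.12, 8.79 and 8.78, with a difference of 3.73 ± 0.30 (SE, log2; 13.3-fold, limma adjusted p 1.91e-08) against gland lymphocytes. Against spleen lymphocytes the Nrg4 difference was 4.85 ± 0.32 (28.8-fold). Nrg1, which encodes a ligand of ERBB3 and ERBB4, had epithelial levels of 6.42, 5.92 and 4.85 and lymphocyte levels of 2.53 to 2.88, a difference of 2.96 ± 0.21 (7.79-fold, limma adjusted p 3.87e-09) against gland lymphocytes. Its lymphocyte levels lay in the low range given above, so this fold too may understate the difference. Erbb4, the receptor for these ligands, was dim in every group, with group means between 2.63 and 2.77, as were Epgn (2.60 to 2.82) and Nrg3 (2.43 to 2.57). Nrg2 was lower in epithelium by 0.34 ± 0.07 (SE, log2) than in gland lymphocytes, a difference with a limma adjusted p of 0.000357 but under 2-fold, while its second probe set read 3.71 to 4.11 in epithelium, above all lymphocyte arrays, a difference of 0.39 ± 0.15 that was also under 2-fold.

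**Figure D3:**
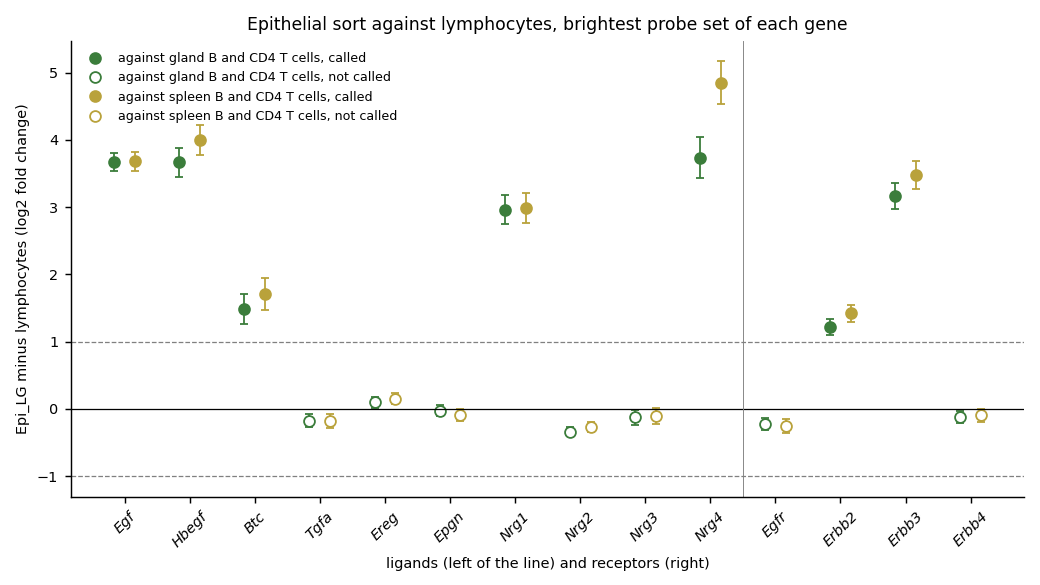
Difference of the epithelial sort from lymphocytes (log2 fold change with SE, y axis) for 10 ligands and 4 receptors, against gland (green) and spleen (yellow) B and CD4 T cells; filled points were called, and dashed lines mark 2-fold. Points are the brightest probe set of each gene. Nrg4, Egf, Hbegf, Erbb3 and Nrg1 lie near or above 3, Btc and Erbb2 between 1 and 2, and the others within 0.5 of 0. Of the Egfr and Tgfa probe sets not plotted, some were called higher in the epithelial sort and others were not.

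The sorted populations carried markers of other cells, and these values stand beside the epithelial results. Epithelial markers were high in the epithelial sort, with a mean level of 9.20 over 11 genes, all above the median of all values. The same arrays had 7 of 7 myoepithelial markers above the median of all values (mean 9.06), 6 of 6 endothelial (8.45) and 4 of 6 fibroblast markers (6.18). These stood at 4.13 to 4.63, 3.61 to 4.22 and 2.88 to 3.10 as group means in lymphocytes. In bulk samples, fewer cells of a type and less RNA per cell cannot be told apart, and the part of these other cells in the epithelial levels of Egf, Hbegf, Nrg1 or the receptors was not tested. Epithelial replicate 1 also carried leukocyte transcripts: Ptprc, which encodes CD45, read 9.62 there and 2.42 and 2.36 in the other epithelial arrays, and 8 leukocyte markers had a mean level of 8.89 beside 4.49 and 4.43. Innate lymphoid and natural killer markers read 6.996 there beside 3.07 and 3.10. Without epithelial replicate 1 the same count, 5 members higher and 0 lower, was called against gland lymphocytes.

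Between gland and spleen, no member was called in either lymphocyte type. In B cells 0 of 8 were called, where 2.58% of all genes were called higher and 1.6% lower in the gland. The members' differences ran from -0.18 to 0.28 on the log2 scale, their median was 0.12 beside 0.00 for all genes, and 0 members had an unadjusted p under 0.05 by limma. The 95% interval that reached furthest was that of Btc, -0.29 to 0.79, while that of Egfr (brightest probe set) ran from -0.31 to 0.14 and that of Ereg from -0.11 to 0.28. In CD4 T cells 0 of 8 were called, where 5.35% of all genes were called higher and 1.62% lower in the gland. Here 2 members, Hbegf and Erbb3, had an unadjusted p under 0.05, and the median difference was 0.08 beside -0.03 for all genes.

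Hbegf was the member that differed most between gland and spleen CD4 T cells. Its levels were 3.38, 4.59, 3.21 and 3.39 in the gland and 2.89, 2.50 and 2.99 in the spleen. The groups did not overlap, and replicate 2 stood above the other gland arrays. The difference was 0.85 ± 0.24 (SE, log2; 1.80-fold) with a limma adjusted p of 0.0175, which missed the 2-fold minimum. It was 0.53 (adjusted p 0.00555) without gland CD4 T cell replicate 2 and 0.70 (adjusted p 0.0925) without spleen CD4 T cell replicate 2. The second Hbegf probe set differed by 0.21 ± 0.21 (limma adjusted p 0.563). All of these levels stood below the median of all values.

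Erbb3 differed by 0.50 ± 0.22 (SE, log2; limma adjusted p 0.125) between gland and spleen CD4 T cells, with overlapping arrays (6.88 to 7.67 and 6.68 to 7.10). The Egfr probe set of rank 3 was higher in gland than in spleen B cells by 0.90 ± 0.19 (1.86-fold, limma adjusted p 0.00365 over all probe sets). In CD4 T cells the same Egfr probe set differed by 0.53 ± 0.19 (adjusted p 0.051). Gland lymphocyte arrays also carried epithelial transcripts. The 11 epithelial markers had mean levels of 5.37 in gland B cells and 5.54 in gland CD4 T cells beside 3.64 and 3.61 in the spleen groups. The 9 lacrimal secretory markers read 8.51 and 8.79 beside 4.74 and 4.27, and 10.6 in the epithelial sort. Krt18, an epithelial keratin, stood 3.53 lower in gland B cells and 3.37 lower in gland CD4 T cells than in the epithelial sort on the log2 scale. Obp1a, a lacrimal secretory marker, stood only 0.99 and 1.08 lower, so the distance from the epithelial sort depends on the marker. The part of this epithelial RNA in the Egfr, Erbb3 and Hbegf values of gland lymphocytes was not tested. Gland suspensions were enzymatically digested while no such step is given for the spleen, and 12 immediate early genes had mean levels of 9.45 and 9.27 in gland B and CD4 T cells beside 5.99 and 6.24 in the spleen. Tissue, digestion and, where it differed, age cannot be told apart.

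Nrg4 was the family gene called between gland and spleen, in B cells, where 2.58% of all genes were called higher and 1.6% lower. Its levels were 6.11, 5.51, 4.51 and 4.85 in gland B cells and 3.52, 4.22 and 3.98 in spleen B cells. The groups did not overlap, and the gland arrays were spread (SD 0.71, n = 4). The difference was 1.34 ± 0.34 (SE, log2; 2.53-fold, limma adjusted p 0.0126). It was 1.15 with an adjusted p of 0.0683 without spleen B cell replicate 1. In CD4 T cells Nrg4 read 5.83, 4.38, 5.21 and 4.93 in the gland and 4.31, 3.99 and 4.28 in the spleen, a difference of 0.89 ± 0.34 (adjusted p 0.0751 by limma). It was 1.13 with an adjusted p of 0.0256 without gland CD4 T cell replicate 2. The difference of these changes between B and CD4 T cells was 0.45 ± 0.48 (adjusted p 0.672), so Nrg4 was not shown to differ between cell types. Of the 11 epithelial markers above, 5 were called higher in the same gland B cell arrays and 6 in the gland CD4 T cell arrays, and their part in the Nrg4 values was not tested.

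**Figure D4:**
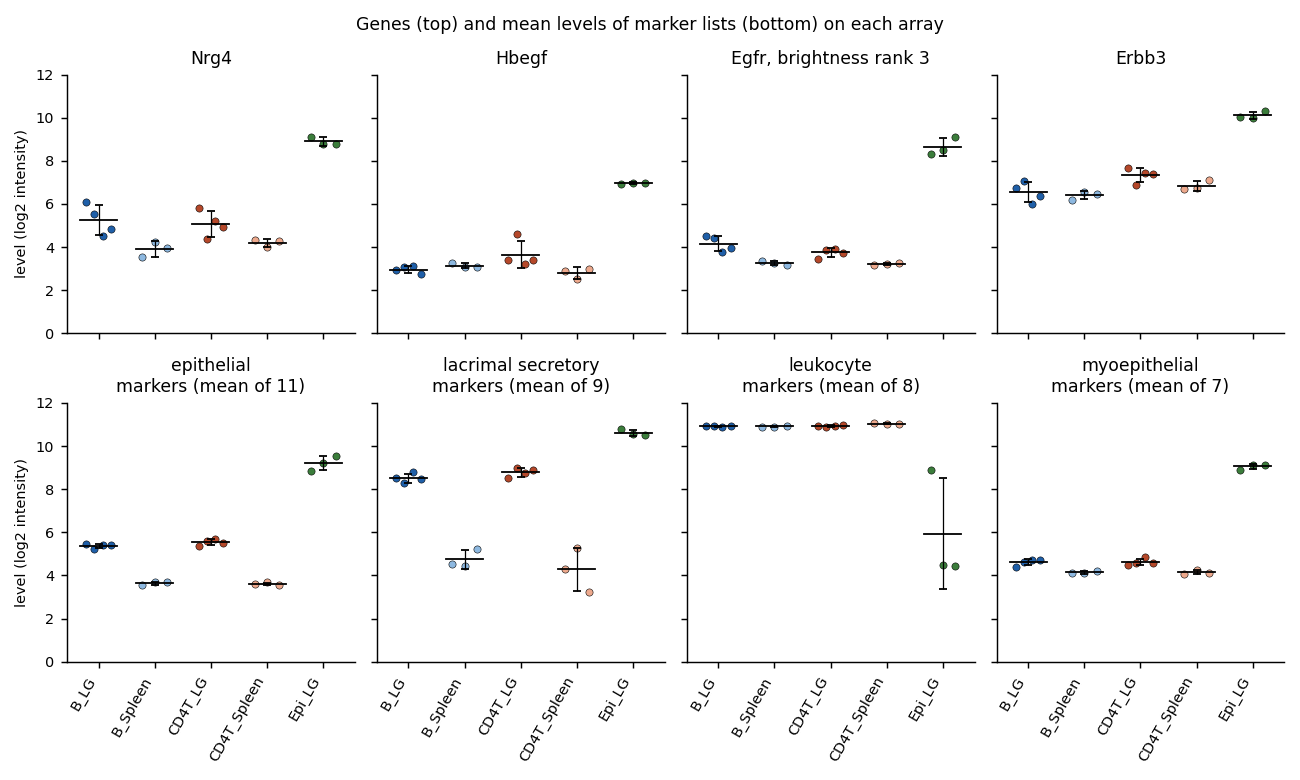
Levels (log2 intensity, y axis) on each array by group of Nrg4, Hbegf, the Egfr probe set of rank 3 and Erbb3 (top), and mean levels of epithelial, lacrimal secretory, leukocyte and myoepithelial marker lists (bottom); points are arrays, horizontal lines means and error bars SD. Epithelial and secretory markers stand higher in gland than in spleen lymphocytes, and 1 of 3 epithelial arrays has leukocyte markers at 8.89.

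Compared directly, the gland-to-spleen changes of B and CD4 T cells differed for 0 of 8 members, where 1.22% of all genes were called with a larger change in B cells and 3.87% with a smaller one. Hbegf came closest: its change was lower in B cells by 1.03 ± 0.34 (SE, log2), with an adjusted p of 0.0736 by limma, and 1.17 lower with an adjusted p of 0.0445 without gland CD4 T cell replicate 3. Without replicate 2, the array in which Hbegf stood apart, it was -0.71 with an adjusted p of 0.0128, under 2-fold. Other settings weakened it: -0.88 (limma adjusted p 0.185) without spleen CD4 T cell replicate 2 and -0.59 (adjusted p 0.191) with averaged probe sets. The second Hbegf probe set gave -0.15 ± 0.29 (limma adjusted p 0.85). Hbegf and Egf (0.54 ± 0.21, adjusted p 0.133) were the 2 members with an unadjusted p under 0.05.

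Within a tissue, no member was called between B and CD4 T cells. In the gland 0 of 8 members were called, where 3.73% of all genes were called higher and 5.97% lower in B cells, and 3 members had an adjusted p under 0.05 with changes under 2-fold. Erbb3 was lower in gland B cells by 0.80 ± 0.20 (SE, log2; limma adjusted p 0.00648) and Hbegf was lower by 0.68 ± 0.22 (adjusted p 0.03). The second probe sets, dim in these cells, differed by -0.02 ± 0.12 for Erbb3 and -0.14 ± 0.19 for Hbegf (limma adjusted p 0.919 and 0.66). On the brighter probe set, Hbegf ranged from -0.83 to -0.37 when each array was left out in turn. The 95% intervals on the brighter probe sets were -1.24 to -0.37 for Erbb3 and -1.16 to -0.21 for Hbegf. Differences of 2-fold are therefore not excluded for these genes. Egf was higher in gland B cells by 0.49 ± 0.14 (adjusted p 0.0129 by limma). In the spleen 0 of 8 members were called and 0 had an unadjusted p under 0.05 by limma, where 4.63% of all genes were called higher and 4.52% lower in B cells. The 95% interval that reached furthest in the spleen was that of Btc, down to -1.08, while those of Ereg (-0.21 to 0.21) and Tgfa (-0.27 to 0.23) were narrower.

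Genes that cut ligands free, or regulate that step, were measured for 9 of 9 named. In the epithelial sort 5 were called higher and 1 lower than in gland lymphocytes, where 14.9% of all genes were called higher and 9.81% lower, with a median difference of 1.26. The largest were Timp3, an inhibitor of metalloproteases (4.70 ± 0.14, SE, log2), Rhbdl2, a rhomboid protease that cuts membrane proteins (2.86 ± 0.18), and Rhbdf1, an inactive rhomboid that helps the protease ADAM17 mature (2.47 ± 0.17). Adam9 (1.31 ± 0.16) followed, and then Adam15 (1.26 ± 0.16). Adam17, the main protease for many EGFR ligands, was the gene called lower: its levels were 8.74 to 8.93 in epithelium and 9.70 to 10.1 in gland lymphocytes, a difference of -1.11 ± 0.07 (adjusted p 1.09e-09 by limma). Adam15 and Adam17 were named after their values were seen. Against spleen lymphocytes 5 shedding genes were called higher and 0 lower, beside 15.6% and 10.7% of all genes.

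Gland B cells differed from gland CD4 T cells in 3 of 9 shedding genes, 2 higher and 1 lower, where 3.73% of all genes were higher and 5.97% lower. Rhbdf1 was higher in B cells by 2.27 ± 0.17 (SE, log2) and Adam9 by 1.67 ± 0.16, and Adam12, which encodes a metalloprotease, was lower by 1.69 ± 0.23. The spleen gave the same counts, 2 higher and 1 lower, beside 4.63% and 4.52% of all genes. Between gland and spleen 0 shedding genes were called in B cells, 0 for the difference of the changes, and 1 in CD4 T cells, where 5.35% of all genes were called higher. That gene was Adam9, at 7.15 to 7.19 in the gland and 5.49, 6.18 and 6.54 in the spleen (1.10 ± 0.18, 2.15-fold). Without spleen CD4 T cell replicate 1 it fell under 2-fold (0.81).

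Of 29 measured genes of the signal chain between receptor and nucleus, 5 were called higher and 5 lower in epithelium than in gland lymphocytes, with a median of -0.16. The higher count was near the share over all genes (14.9% higher, 9.81% lower). Gab1, a docking protein of receptor tyrosine kinases, read 9.03 to 9.57 in epithelium and 4.37 to 5.11 in gland lymphocytes (4.59 ± 0.17, SE, log2; limma adjusted p 1.43e-12). Eps8, an EGFR substrate that links receptors to actin, was higher by 3.11 ± 0.18. Among the catalytic subunits of phosphoinositide 3-kinase, Pik3cb was higher by 1.98 ± 0.20 and Pik3cd, known from leukocytes, was lower (-3.67 ± 0.34). Pik3cd read 6.40 in epithelial replicate 1, the array with leukocyte transcripts, and 4.20 and 4.08 in the other epithelial arrays. Against spleen lymphocytes 3 genes of the chain were called higher and 5 lower, beside 15.6% and 10.7% of all genes.

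In gland against spleen B cells 1 of 29 signal chain genes was called higher, Pik3cb (1.36 ± 0.22, SE, log2), and 0 lower, beside 2.58% and 1.6% of all genes. In CD4 T cells 4 were higher and 0 lower, beside 5.35% and 1.62% of all genes: Eps8 (1.21 ± 0.21), Pik3cb (1.13 ± 0.22), Ptpn11 (1.13 ± 0.07), which encodes the phosphatase SHP2, and Stat3 (1.02 ± 0.14), a transcription factor. The count was 2 without gland CD4 T cell replicate 2. The gland-to-spleen change was lower in B cells than in CD4 T cells for Eps8 (-1.54 ± 0.29) and Ptpn11 (-1.06 ± 0.10), 2 of 29, and for 0 genes it was higher. Over all genes 3.87% were called with a smaller and 1.22% with a larger change in B cells. Gland B cells were above gland CD4 T cells in Plcg2, a phospholipase of B cell receptor signalling (5.88 ± 0.12), Eps8 (3.20 ± 0.19) and Vav2, an exchange factor (1.71 ± 0.07). They were below in 2 genes, Pik3cb (-1.25 ± 0.20) and Ptpn11 (-1.24 ± 0.07), the latter named after its value was seen. Over all genes 3.73% were called higher and 5.97% lower in gland B cells. In the spleen 3 genes of the chain were higher and 2 lower in B cells, beside 4.63% and 4.52% of all genes.

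Some of the inhibitors that EGFR signalling is known to induce or recruit were higher in gland than in spleen lymphocytes, although other receptors induce several of them too. Of 20 measured, 3 rose and 0 fell in B cells of the gland relative to the spleen, with a median of 0.25, where 2.58% of all genes were called higher and 1.6% lower. These were Dusp4, a phosphatase of MAP kinases (3.32 ± 0.32, SE, log2), Socs3 (2.78 ± 0.13), an inhibitor of cytokine receptors, and Errfi1 (2.08 ± 0.29), which encodes MIG6, a direct inhibitor of EGFR. In CD4 T cells 5 were higher and 0 lower, with a median of 0.27, where 5.35% of all genes were called higher and 1.62% lower. Dusp4 was higher by 3.92 ± 0.32, Spry1, which encodes a Sprouty inhibitor of Ras signalling, by 3.75 ± 0.11, Errfi1 by 2.46 ± 0.29 and Lrig1, which encodes a membrane protein that lowers ERBB receptors, by 1.55 ± 0.22. The remaining gene was Spry2 (1.39 ± 0.22), which lay outside the rule for named genes and was named after its value was seen.

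Errfi1 read 7.84, 7.98, 9.12 and 7.64 in gland B cells and 6.03, 6.23 and 5.94 in spleen B cells. In CD4 T cells Errfi1 read 9.96, 10.6, 9.74 and 9.78 in the gland and 7.15, 7.89 and 7.64 in the spleen, and in epithelium it read 10.7, 10.8 and 11.01. The gland and spleen arrays did not overlap in either cell type. Spry1 read 8.62 to 8.90 in gland CD4 T cells, 5.03 ± 0.03 (SD, n = 3) in spleen CD4 T cells and 4.14 to 4.54 in all B cell arrays. Of the 12 immediate early genes measured, 12 were called higher in gland B cells and 10 in gland CD4 T cells than in the spleen, and the part of tissue handling in these changes was not tested.

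The changes of 3 of 20 feedback inhibitors differed between B and CD4 T cells, 1 larger and 2 smaller in B cells, beside 1.22% and 3.87% of all genes. They were Spry1 (-3.69 ± 0.15, SE, log2, B minus CD4 T), Socs3 (1.93 ± 0.18) and Lrig1 (-1.53 ± 0.31), with limma adjusted p-values of 5.80e-10, 2.47e-06 and 0.00375. Within the gland, 1 was higher in B than in CD4 T cells (Spry2, 1.27 ± 0.20, named after its value was seen) and 4 were lower: Spry1 (-4.47 ± 0.10), Lrig1 (-3.74 ± 0.20), Dusp4 (-2.75 ± 0.29) and Errfi1 (-1.88 ± 0.27). Over all genes 3.73% were called higher and 5.97% lower in gland B cells. In the spleen 2 inhibitors were higher and 5 lower in B cells, beside 4.63% and 4.52% of all genes. In the epithelial sort 5 were called higher and 3 lower than in gland lymphocytes, beside 14.9% and 9.81% of all genes, led by Spry2 (3.65 ± 0.19), Lrig3 (an 8-fold difference), the ubiquitin ligase gene Cbl (-2.02 ± 0.16) and the Sprouty-related Spred1 (1.90 ± 0.11). Without epithelial replicate 1 there were 6 higher and 4 lower. Against spleen lymphocytes 10 were higher and 3 lower, beside 15.6% and 10.7% of all genes. The 12 immediate early genes had a mean level of 10.1 in the epithelial sort, beside 5.99 and 6.24 in spleen B and CD4 T cells. Against spleen lymphocytes 11 of them were called higher and 0 lower, and against gland lymphocytes 3 higher and 1 lower. The part of tissue handling in the inhibitor counts was not tested.

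**Figure D5:**
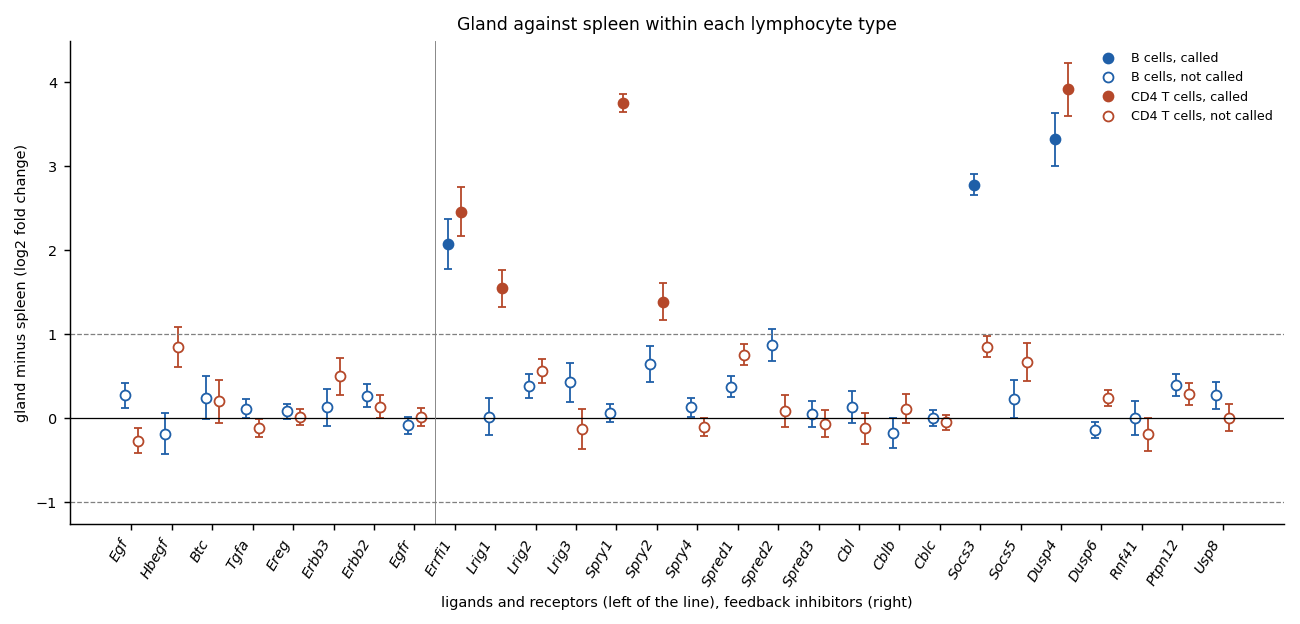
Gland minus spleen difference (log2 fold change with SE, y axis) within B cells (blue) and CD4 T cells (red) for 8 ligands and receptors and 20 feedback inhibitors; filled points were called and dashed lines mark 2-fold. No ligand or receptor is called, while Dusp4 and Errfi1 are called in both cell types, Socs3 in B cells, and Spry1, Spry2 and Lrig1 in CD4 T cells.

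For the 4 members whose highest group mean was above the median of all values and whose group means spanned at least 1 on the log2 scale, the genes of most similar pattern were found by Pearson's r over 17 arrays among 17096 other genes. Hbegf was closest to Fgfr2 (r = 0.988), a fibroblast growth factor receptor, then to Tmigd1 (0.987) and Cpe (0.986). Egf was closest to Hoxd8 (0.993), Thbs2 (0.992) and Prkd1 (0.991), Erbb2 to Rdh16 (0.985), AI463170 (0.973) and Aass (0.973), and Erbb3 to Scamp1 (0.989), Oxr1 (0.981) and Lcmt1 (0.981). These values describe the 17 arrays, whose 3 epithelial arrays set most of the spread of each gene, and they carry no test.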

How the data were processed

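RNA of sorted cells was amplified and hybridised to expression arrays, per the labels' protocols. The values, as deposited, are log2 expression for 45141 probe sets and 17 arrays, made by the authors with Partek and RMA per the submitters' processing notes, with versions not given in the sources used here. Array medians ran from 4.70 to 4.75, and the number of arrays limits precision. Some RNA samples had lower RNA integrity, and they could not be matched to arrays. Probe sets were named from the platform's annotation, with symbols updated through RefSeq (GRCm38.p6): 28898 named 1 gene, 551 several and 15692 none. The brightest probe set of each of 17097 genes was kept, with no filter on dim genes.

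Groups came from sample titles. The model, 1 mean per group, used limma 3.58.1 under R 4.3.3 (lmFit, then eBayes; degrees of freedom were 12 residual, 3.17 prior). Calls needed a 2-fold difference and a p under 0.05 after Benjamini-Hochberg adjustment across all genes. Errors beside differences are SE, and beside means SD. The fit was tested on simulated data. Members and lists were chosen with earlier results of these data known. Named were all members and family genes, and from each pathway list, in 5 comparisons, the called genes of largest change (at most 4). Alternatives covered the fold minimum, a dim filter, the probe set choice, centring, quantile normalization, eBayes settings, array weights, a replicate block, the arrays fitted and leaving out each array. Figures used matplotlib 3.10.9.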

Additional observations from a re-analysis of the deposited data

Results flagged for a closer look

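The 14 genes of the family were each tested for an array apart from the others in the 2 groups of 4 arrays, 28 tests in all. In 5 of them an array stood apart, and chance gives about 1 in 20. Hbegf read 4.59 in gland CD4 T cell replicate 2, beside 3.21 to 3.39 in the other 3 arrays. Egfr (brightest probe set) read 5.77 in the same array, beside 5.49 to 5.54. Egf read 5.61 in gland CD4 T cell replicate 1, beside 5.08 to 5.15. Epgn read 2.52 in gland CD4 T cell replicate 4, beside 2.64 to 2.65. Nrg1 read 2.65 in gland B cell replicate 4, beside 2.83 to 2.85.

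The gland-to-spleen change differed between B and CD4 T cells, by the test of the difference itself, in 5 pathway genes. On the log2 scale and as B minus CD4 T, the difference was -1.54 for Eps8, -1.06 for Ptpn11, -1.53 for Lrig1, 1.93 for Socs3 and -3.69 for Spry1.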

How the results depend on the processing

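The 5 members called in the epithelial sort ranged from 4 to 7 over the alternatives in both epithelial comparisons, and the count was 5 with each array left out in turn. The low count came with the filter on dim genes, which leaves Btc out, and the high count with the probe set of largest interquartile range for each gene. Over all genes that choice gave 2717 higher and 1966 lower against gland lymphocytes, in place of 2540 and 1677. Against spleen lymphocytes it gave 2863 and 2182, in place of 2673 and 1836. It picks the probe set that varies most over the arrays. That choice gave Egfr a difference of 4.68 against gland and 5.40 against spleen lymphocytes, and Tgfa 1.01 and 1.29, where the brightest probe sets gave negative values; averaging the probe sets of each gene gave Egfr 1.81 and 1.96. With no fold minimum, 1 member (Hbegf) was called between gland and spleen CD4 T cells and 3 between gland B and CD4 T cells, in place of 0. For the difference of the gland-to-spleen changes, leaving out 1 array gave 0 to 1 members.

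No fold minimum raised the calls over all genes (higher and lower) to 1332 and 1687 from 441 and 273 for gland against spleen B cells, 2168 and 1827 from 914 and 277 for CD4 T cells, 611 and 1120 from 208 and 661 for the difference of these changes, 4569 and 6041 from 2540 and 1677 for epithelium against gland lymphocytes, 4503 and 6291 from 2673 and 1836 against spleen lymphocytes, 2451 and 2745 from 638 and 1021 for gland B against CD4 T cells and 1906 and 1937 from 792 and 773 in the spleen. Without the fold minimum the pathway lists also gave more calls, such as 11 in place of 4 signal chain genes between gland and spleen CD4 T cells, where averaged probe sets or array weights gave 2. The 2 signal chain genes whose changes differed between B and CD4 T cells became 0 with averaged probe sets. They became 1 with arrays centred on the median of the probe sets that name exactly 1 gene. The cause was not tested. The largest interquartile range gave 432 genes lower in gland CD4 T cells. The deviations of same-numbered samples from their group means correlated above 0.1 in 2 of 30 pairs (r from -0.397 to 0.215), so the numbers were not taken as pairs; the replicate block gave 5 members called in each epithelial comparison and 0 in the others, and changed no other call of the family. Dim probe sets such as Ereg limit what can be detected.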
